A study of Mus musculus with 19 samples.

Results

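The globin genes of the mouse were followed through 7 sorted bone marrow populations. Members were the 8 genes Hba-a1, Hba-x, Hbb-bs, Hbb-bt, Hbb-b2, Hbb-y, Hbb-bh1 and Hbq1b, chosen by name. They were found by matching the RefSeq accession of each probe on the array to these symbols, which gave 9 probes of 59628, or 8 genes of 20660 named ones. Each gene had 1 probe except Hbb-y, which had A_55_P1967481 (probe 1) and A_55_P1967478 (probe 2). Each probe is reported on its own, because globin paralogs are alike in sequence and a probe may also bind the transcript of a relative.

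RNA came from adult C57BL/6 mice of 8 to 12 weeks and was read on 19 single-channel Agilent arrays, 1 per sample. The erythroid side held Ter119-positive early erythroblasts (EE, large cells with high CD44, 2 arrays) and Ter119-positive late erythroblasts (LE, small cells with intermediate CD44, 3 arrays). Granulocytes (GR, 3 arrays) were sorted as Gr1-positive cells. The progenitors were megakaryocyte-erythroid progenitors (MEP, 3 arrays, low for both CD16/32 and CD34), granulocyte-macrophage progenitors (GMP, 2 arrays, high for both) and common myeloid progenitors (CMP, 3 arrays, low for CD16/32 and high for CD34). LSK cells (3 arrays), which lack lineage markers and carry cKit and Sca1, hold the stem cells and multipotent progenitors. Nothing in the labels says that replicates came from separate animals, so the p-values cover only sample-to-sample spread, and part or all of it may be technical.

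Hemoglobin carries oxygen in red cells and is built from a pair of alpha-type and a pair of beta-type chains, each holding a heme. The alpha-type genes lie together on mouse chromosome 11 and the beta-type genes on chromosome 7, and in both clusters embryonic genes give way to adult genes during development. Primitive red cells of the yolk sac use the embryonic chains, and definitive red cells of fetal liver and adult marrow use the adult ones. Hba-a1 encodes the adult alpha chain. Hbb-bs and Hbb-bt encode the adult beta chains of the haplotype that C57BL/6 mice are known to carry, whereas Hbb-b2 is the minor adult beta gene of another haplotype, so the transcript that the Hbb-b2 probe reads in these mice cannot be named. Hba-x encodes the embryonic zeta chain, Hbb-y the embryonic epsilon-type chain and Hbb-bh1 a further embryonic beta-type chain. Hbq1b is a theta-type gene of the alpha cluster.

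The 250 bases before the start of 5 members are given first, because adult and embryonic members differed in how they behaved and a reader may want to see which classical promoter boxes they share. They are from RefSeq on build GRCm38.p6. Hba-a1 (chr11:32283422-32283671) and Hba-x (chr11:32276350-32276599) are on the plus strand, and Hbb-bs (chr7:103827929-103828178), Hbb-bt (chr7:103813924-103814173) and Hbb-y (chr7:103853208-103853457) on the minus strand. Capitals mark 4 motifs, searched on both strands. They are the CACCC box, the CCAAT box, the TATA box as TATAA and the GATA motif as GATAA.
Hba-a1: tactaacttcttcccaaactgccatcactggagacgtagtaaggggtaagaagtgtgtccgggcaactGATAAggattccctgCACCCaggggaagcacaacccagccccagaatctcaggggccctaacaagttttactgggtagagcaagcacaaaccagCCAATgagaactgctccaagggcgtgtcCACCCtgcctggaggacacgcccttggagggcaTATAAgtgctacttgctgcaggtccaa
Hba-x: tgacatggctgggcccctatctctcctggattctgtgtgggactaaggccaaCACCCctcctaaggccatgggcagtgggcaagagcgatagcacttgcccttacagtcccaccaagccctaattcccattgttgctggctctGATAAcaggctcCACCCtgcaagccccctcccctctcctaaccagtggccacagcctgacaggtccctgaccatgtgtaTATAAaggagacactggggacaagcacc
Hbb-bs: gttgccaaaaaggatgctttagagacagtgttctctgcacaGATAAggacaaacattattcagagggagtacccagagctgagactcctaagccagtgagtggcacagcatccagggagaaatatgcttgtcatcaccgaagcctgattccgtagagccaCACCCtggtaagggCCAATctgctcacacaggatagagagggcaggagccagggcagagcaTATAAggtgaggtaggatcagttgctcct
Hbb-bt: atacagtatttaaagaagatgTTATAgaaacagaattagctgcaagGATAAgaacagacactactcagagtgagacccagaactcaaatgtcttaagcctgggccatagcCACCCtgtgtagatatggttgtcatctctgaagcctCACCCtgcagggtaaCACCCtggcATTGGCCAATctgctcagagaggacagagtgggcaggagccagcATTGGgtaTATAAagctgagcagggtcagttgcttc
Hbb-y: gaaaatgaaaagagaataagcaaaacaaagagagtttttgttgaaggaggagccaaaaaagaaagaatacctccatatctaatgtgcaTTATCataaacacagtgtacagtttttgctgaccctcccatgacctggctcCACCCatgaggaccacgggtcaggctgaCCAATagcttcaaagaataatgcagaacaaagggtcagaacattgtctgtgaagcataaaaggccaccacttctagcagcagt
CACCC occurred in all 5 windows shown, with 3 copies in Hbb-bt, 2 each in Hba-a1 and Hba-x and 1 each in Hbb-bs and Hbb-y. CCAAT occurred in 4 of them and not in that of Hba-x. TATAA lay 23 to 29 bases before the start in all but Hbb-y, and GATAA was present once in each. Among 32851 promoter windows of the same length, 52.0% held CACCC, 33.9% held CCAAT, 22.8% held TATAA and 22.6% held GATAA, so these letters are common. A match is a description and not a binding site. RefSeq windows were matched for 6 of the 8 members; Hbb-b2 and Hbb-bh1 were not, and the Hbq1b window, which held 1 CCAAT and 1 reverse TATAA, is not printed. The windows of Hba-a1 and of Hba-a2, its near-identical neighbour, shared a run of 247 bases, against 14 bases between Hbb-bt and Hbb-bs.

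Levels below are log2 of the processed signal minus the 75th percentile of the array on the same scale, so a level of 0 is the brightness of the upper quartile of spots. Detection by the scanner software (well above background) on all arrays of 1 or both groups admitted a probe to the test. It passed with an adjusted p from limma below 0.05 and detection throughout the higher group. The scale matters for the erythroblasts: their 75th percentile lay between 50.1 and 81.3 intensity units, against 266 to 607 on the other 14 arrays. Spike-in RNA added to each sample gives another scale, under which the median over all tested probes shifted to -3.25 between EE and MEP and to -1.12 between LE and EE, against 0.26 and -0.16 on the percentile scale. All 7 erythroid markers on the array, of 8 listed, were well above background on every erythroblast array, and the 6 granulocyte markers were summed to 4551 to 5109 in GR and to at most 516.5 elsewhere. In such bulk samples, fewer cells of a type and less RNA per cell cannot be told apart.

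Globin signal separated the cell types by orders of magnitude. The 13 probes annotated to alpha-type and beta-type globins held 2.64% and 2.38% of all signal on the EE arrays and 4.10%, 3.87% and 3.88% on the LE arrays. Shares in GR were 0.316%, 0.313% and 0.303%. The remaining arrays lay between 0.0046% and 0.0238%, with CMP highest and GMP lowest among them. The embryonic members contributed at most 0.00109% on any array, reached in LE replicate 2.

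**Figure D1:**
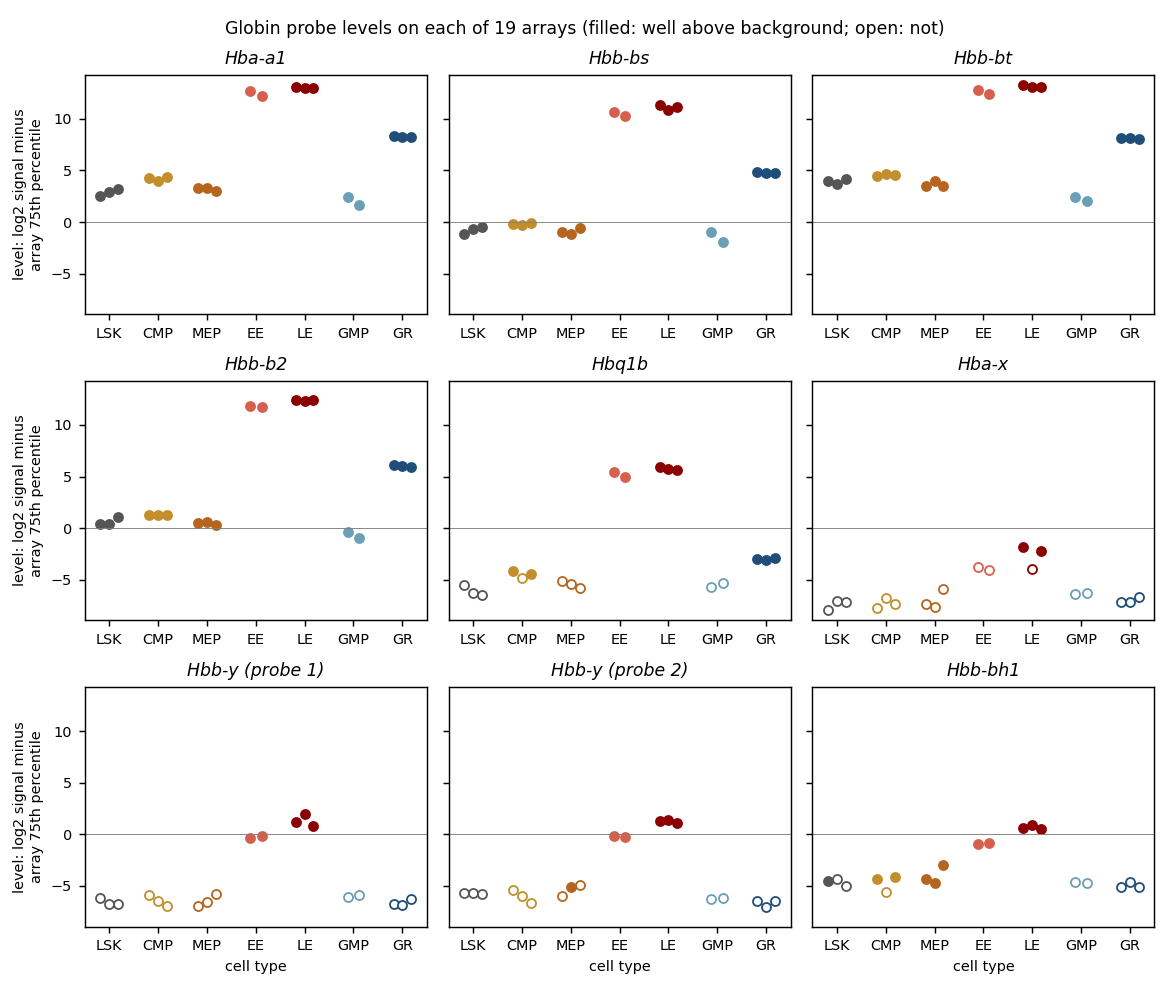
Level of each member probe (vertical axis, log2 signal minus the 75th percentile of the array) on each array, by cell type (horizontal axis); filled points were well above background on that array and open points were not. Adult probes lie at 10.30 or higher in both erythroblast stages and at 4.71 or higher in GR. The Hba-x and Hbb-y probes are above background mainly in erythroblasts. Hbb-bh1 is so on all erythroblast arrays and also on 6 of the 11 LSK, CMP, MEP and GMP arrays.

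The adult alpha probe rose in early erythroblasts. Hba-a1 stood at 12.69 and 12.24 in EE, against 3.30, 3.32 and 3.05 in MEP, a difference of 9.24 ± 0.23 (SE, limma, adjusted p = 1.59e-13) or 605-fold. The arrays of both groups were tight and far apart. Its rank was 39 among the 31642 probes tested. The size depended on the probe: for Hba-a2, the near-identical neighbour and not a member, the difference was 6.66 ± 0.22 or 101-fold.

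The adult beta probes rose too. Hbb-bs stood at 10.71 and 10.30 in EE and at -0.92, -1.21 and -0.57 in MEP, a difference of 11.40 ± 0.27 and rank 7. Hbb-bt stood at 12.82 and 12.40 in EE and at 3.45, 3.95 and 3.45 in MEP, a difference of 8.99 ± 0.19 and rank 48. No EE array came near any MEP array for either gene. Hbb-b2 stood at 11.85 and 11.70 in EE, against 0.50, 0.63 and 0.30 in MEP, which gave 11.30 ± 0.21 and rank 8. All passed the test (adjusted p at most 1.46e-13).

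The unscaled signal shows how bright these spots were. Hbb-bt gave 462888 and 438419 intensity units in EE, against 6056, 7635 and 4417 in MEP. Hba-a1 gave 423674 and 392971 units in EE, against 5458, 4935 and 3334 in MEP. These spots were among the brightest on the erythroblast arrays, whose highest signals lay between 447291 and 504476, although the scanner files flagged no spot as saturated. Under spike-in scaling the differences were smaller and kept their direction, at 5.73 for Hba-a1, 7.89 for Hbb-bs, 5.48 for Hbb-bt and 7.79 for Hbb-b2. On the slide that held both cell types, EE was higher than MEP by 8.92 for Hba-a1, 11.50 for Hbb-bs, 8.44 for Hbb-bt and 11.07 for Hbb-b2.

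Hbq1b, the theta-type member, rose with the adult genes from a level that was not measurable. It stood at 5.46 and 4.96 in EE, where its signal was 2818 and 2524 units, and was well above background on no MEP, GMP or LSK array. On the percentile scale the bound against MEP was at least 961-fold (adjusted p = 2.90e-13, limma). The bound depends on that scale: before scaling, the ratio of mean signal in EE to that in MEP was 230. Its near copy Hbq1a stood at 4.27 and 3.79 in EE and was well above background on 1 of 3 MEP arrays.

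Embryonic beta-type probes were also above background in adult erythroblasts. Probe 1 of Hbb-y stood at -0.36 and -0.14 in EE and was well above background on no MEP array. On the percentile scale this gave a bound of at least 21.9-fold (limma, adjusted p = 1.13e-09). Probe 2 stood at -0.18 and -0.30 in EE, against -5.96, -5.13 and -4.87 in MEP, a difference of 5.08 ± 0.33 (adjusted p = 1.67e-09). Both probes of the gene therefore placed EE above every MEP array, by 2.69 and 1.57 under spike-in scaling. Their signals were low in absolute terms, at 49.8 and 74.0 units for probe 1 and at 56.5 and 66.0 units for probe 2 in EE. Intensity of probe 2 in MEP was 8.93, 14.1 and 13.7 units, of which only the second was well above background.

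For Hbb-bh1 the direction depended on the scale. Its level was -0.90 and -0.84 in EE, against -4.34, -4.76 and -2.98 in MEP, a difference of 3.16 ± 0.46 on the percentile scale (adjusted p = 1.32e-05) and -0.35 under spike-in scaling, where it did not pass. Unscaled, the groups overlapped, with 34.5 and 45.5 units in EE and 27.5, 18.2 and 51.2 units in MEP. Hba-x was not tested in this comparison, since it was well above background on no EE and no MEP array.

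Of the 9 member probes, 8 were tested between EE and MEP and 8 were higher in EE, against 43.9% of all probes tested called higher and 80.8% called in either direction. Probe 1 and probe 2 of Hbb-y and Hbq1b entered the test only through EE and so had to be higher there. The median difference of the tested members was 9.11, beside 0.26 over all probes tested.

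**Figure D2:**
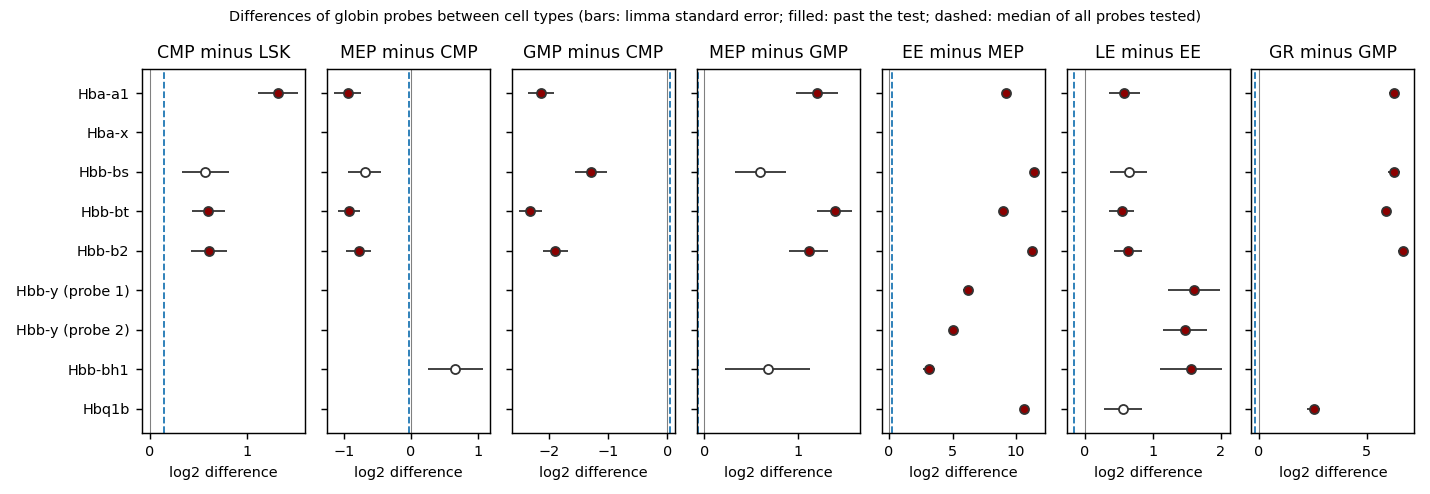
Difference of each member probe in 7 comparisons (horizontal axis, log2 difference with its limma standard error, first-named cell type minus second-named); filled points passed the test, and the dashed line is the median of all probes tested. The scales differ between panels: adult probes differ by 9.0 to 11.4 between EE and MEP and by 0.54 to 0.65 between LE and EE.

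Adult and embryonic probes were also set against each other within an array, since the difference between 2 probes on the same array does not depend on its scale. Hbb-bh1 was the embryonic probe that was well above background on every erythroblast and every MEP array, so the comparison is given for it. Against the 3 MEP arrays, the 5 erythroblast arrays (EE and LE) had a gap between Hba-a1 and Hbb-bh1 that was larger by 5.49, and a gap between Hbb-bt and Hbb-bh1 that was larger by 5.22. The arrays did not overlap, and the two-sided exact permutation p of 0.0357, before and after Benjamini-Hochberg adjustment, is the smallest that 5 against 3 arrays allow. This subset was one of the alternatives. The planned comparison with all 11 progenitor arrays is not read here, because Hbb-bh1 was well above background on 6 of them and probe 2 of Hbb-y on 1, and a signal at background hides how far a probe moved. Hba-x and probe 1 of Hbb-y were below background on all progenitor arrays.

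Between the erythroblast stages the embryonic probes differed most. Probe 1 of Hbb-y stood at 1.22, 2.0 and 0.84 in LE, against -0.36 and -0.14 in EE, a difference of 1.61 ± 0.38 (adjusted p = 2.25e-03). Probe 2 stood at 1.30, 1.37 and 1.05 in LE, against -0.18 and -0.30 in EE, a difference of 1.48 ± 0.32 (adjusted p = 1.20e-03). Hbb-bh1 stood at 0.65, 0.93 and 0.52 in LE, against -0.90 and -0.84 in EE, a difference of 1.57 ± 0.45 (adjusted p = 8.24e-03). For all 3 probes every LE array lay above every EE array, also before scaling. Hbb-bh1 had 78.4, 110.4 and 72.2 units in LE, against 34.5 and 45.5 in EE. Under spike-in scaling the differences were 0.65, 0.53 and 0.61 in the same order, and none passed.

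The adult probes differed less between the stages, and their direction depended on the scale. Hba-a1 stood at 13.10, 13.03 and 13.00 in LE, against 12.69 and 12.24 in EE, a difference of 0.58 ± 0.22 (adjusted p = 0.0353) and of -0.37 under spike-in scaling. Hbb-bt stood at 13.24, 13.09 and 13.12 in LE, against 12.82 and 12.40 in EE, a difference of 0.54 ± 0.19 (adjusted p = 0.0210) and of -0.41 under spike-in scaling. Hbb-b2 differed by 0.63 ± 0.21 (adjusted p = 0.0157), and by -0.32 under spike-in scaling. Every LE array lay above every EE array for all 3 on the percentile scale. Hbb-bs, at 0.65 ± 0.27 (adjusted p = 0.0528), and Hbq1b, at 0.56 ± 0.28 (adjusted p = 0.101), did not pass. In unscaled signal the stages overlapped for Hbb-bt, with 484672, 504476 and 447291 units in LE and 462888 and 438419 units in EE.

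In all, 6 of 8 tested members were higher in LE, against 22.0% of all probes tested called higher and 58.9% called in either direction. Some markers of other cells moved with the stage. The granulocyte sum was 503, 476 and 516 in LE and 98.3 and 354 in EE. The sum of island macrophage markers was 15.7, 10.0 and 8.86 in LE and 6.64 and 7.56 in EE. Other sums were lower in LE. The megakaryocyte and platelet sum was 21.35 to 27.31 in LE and 39.79 to 45.75 in EE. The B cell sum was 1.31 to 1.65 in LE and 1.80 to 3.69 in EE. The part of other cells in the differences between the stages was not tested. Without EE replicate 2, which held the lower adult globin level of the pair, only the 3 embryonic probes passed. The gap between embryonic and adult probes within an array, which needs no scale, also moved: probe 2 of Hbb-y minus Hbb-bt was -12.07 to -11.72 in LE and -13.00 to -12.70 in EE, and Hbb-bh1 minus Hbb-bt was -12.60 to -12.16 in LE and -13.71 to -13.23 in EE. Neither pair of ranges overlapped. With 3 arrays against 2 an exact permutation test cannot give a two-sided p below 0.2, so this is a description. Hbb-bt gave the highest signal on every LE array, and a loss of response among the brightest spots was not tested.

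Hba-x, the zeta gene, was well above background on 2 of 19 arrays, LE replicates 1 and 3, with 13.9 and 11.1 units. LE replicate 2 had 3.71 units and the EE arrays 4.81 and 4.96 units, none of them well above background.

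**Figure D3:**
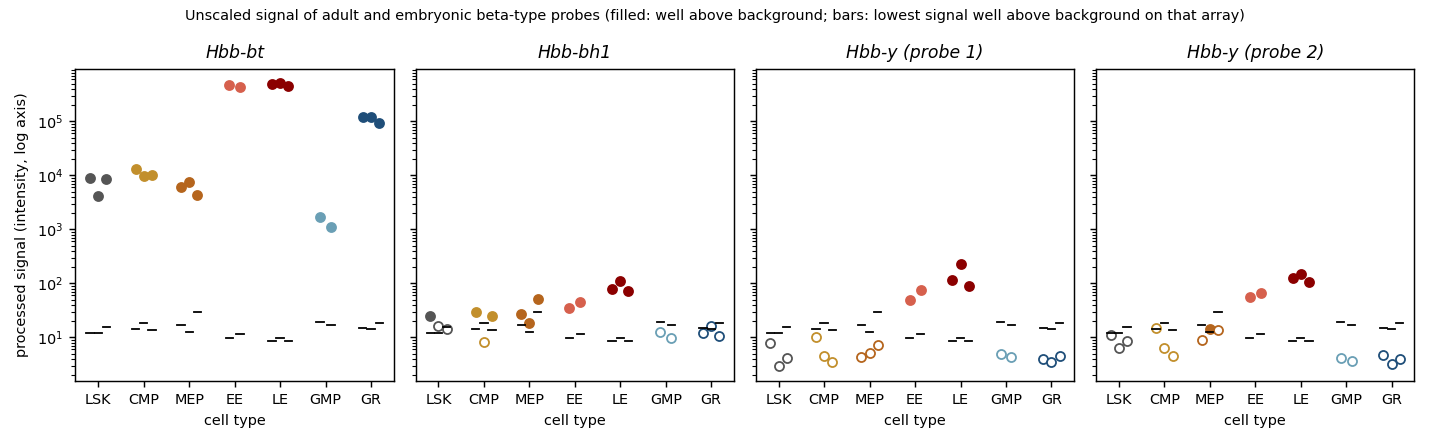
Processed signal before scaling (vertical log axis, intensity units) of Hbb-bt and of the embryonic beta-type probes on each array, by cell type (horizontal axis); filled points were well above background, and the short bars give the lowest signal well above background on that array. In GR, Hbb-bt lies between 94846 and 120879 units while both Hbb-y probes stay below 5 units.

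Granulocytes carried adult globin signal well above their progenitors. Hba-a1 stood at 8.37, 8.25 and 8.23 in GR, against 2.40 and 1.65 in GMP, a difference of 6.26 ± 0.23 or 76.6-fold (limma, adjusted p = 5.82e-11). Hbb-bt stood at 8.10, 8.18 and 8.04 in GR, against 2.39 and 2.06 in GMP, a difference of 5.88 ± 0.19 or 58.9-fold (adjusted p = 1.93e-11). The 3 GR arrays were nearly equal, and none overlapped with GMP. Hbb-bs differed by 6.28 ± 0.27, standing at 4.88, 4.76 and 4.71 in GR and at -1.02 and -1.98 in GMP. Hbb-b2 differed by 6.66 ± 0.21, standing at 6.10, 6.07 and 5.91 in GR and at -0.34 and -0.93 in GMP. These differences were between 6.22 and 7.00 under spike-in scaling.

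Hbq1b stood at -2.95, -3.11 and -2.92 in GR and was well above background on no GMP array, a bound of at least 2.02-fold (adjusted p = 1.91e-06) that did not pass after normexp background correction. Of the 9 member probes 5 were tested between GR and GMP and 5 were higher in GR, against 27.6% of all probes tested called higher and 65.7% called in either direction. Hbq1b entered that test only through GR and so had to be higher there. The embryonic probes were well above background on no GR and no GMP array. Both Hbb-y probes read 3.16 to 4.80 units in GR, where Hbb-bt read 119133, 120879 and 94846 units, below its 438419 to 504476 units in the erythroblasts. By contrast 1 of the 2 probes of Hbb-bh2, a further gene of the beta cluster and not a member, was well above background in GR, at 47.1, 26.1 and 23.4 units, and on no GMP array, a bound of at least 1.23-fold (adjusted p = 1.51e-05). Binding of adult transcripts to the embryonic probes was not tested. GR and GMP shared no slide, so there is no within-slide value, and with slide as a term in the fit the differences were 6.40 for Hba-a1 and 6.17 for Hbb-bt.

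Erythroid genes other than globins were also higher in GR than in GMP. All 7 erythroid markers were well above background on every GR array, with a summed level of 16.4 to 18.3, against 0.819 to 1.13 in GMP, where Epb42 and Rhag were above background on no array. Of the 13 genes listed as other erythroid genes, 6 of which are also among these markers, 10 of 12 tested were higher in GR and 1 was lower, with a median of 2.51 beside -0.18 over all probes tested. Slc4a1, the band 3 anion exchanger, rose by 4.38 ± 0.25. Genes of heme supply and hemoglobin upkeep were mixed, with 3 of 9 higher and 4 lower and a median of -0.14. Under spike-in scaling 2 were higher and 0 lower. Over all probes tested 27.6% were called higher and 65.7% in either direction. The count of heme supply and upkeep genes called higher was near that share. Alas2, the first enzyme of heme synthesis in red cells, rose by 5.69 ± 0.21, while Uros, a later enzyme of that pathway, fell by 0.89 ± 0.13. Among markers of other cells, the island macrophage sum was 75.6 to 77.8 in GR and 9.34 to 9.39 in GMP. The B cell sum was 27.6 to 29.5 in GR and 13.9 to 16.7 in GMP. The T and NK cell sum went the other way, at 69.4 to 73.1 in GR and 128 to 191 in GMP. The part of red-lineage RNA, or of RNA from other cells, in the granulocyte globin signal was not tested.

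Globin and marker signal in GR did not stand in the same proportion to late erythroblasts. The mean level in GR minus that in LE was -4.76 for Hba-a1, -6.37 for Hbb-bs, -5.04 for Hbb-bt, -6.38 for Hbb-b2 and -8.76 for Hbq1b. For the 7 erythroid markers it ran from -9.07 (Rhag) to -8.17 (Alas2). The adult globin gaps were therefore smaller than each marker gap, while that of Hbq1b fell inside the range of the markers. Before scaling, the probe of Hba-a2 gave 348284, 342719 and 318504 units in GR and 356408, 354265 and 322872 units in LE, which overlapped. Hba-a1 and Hbb-bt gave 412217 units or more in LE. The part of a loss of response among such bright spots in the adult globin gaps was not tested.

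**Figure D4:**
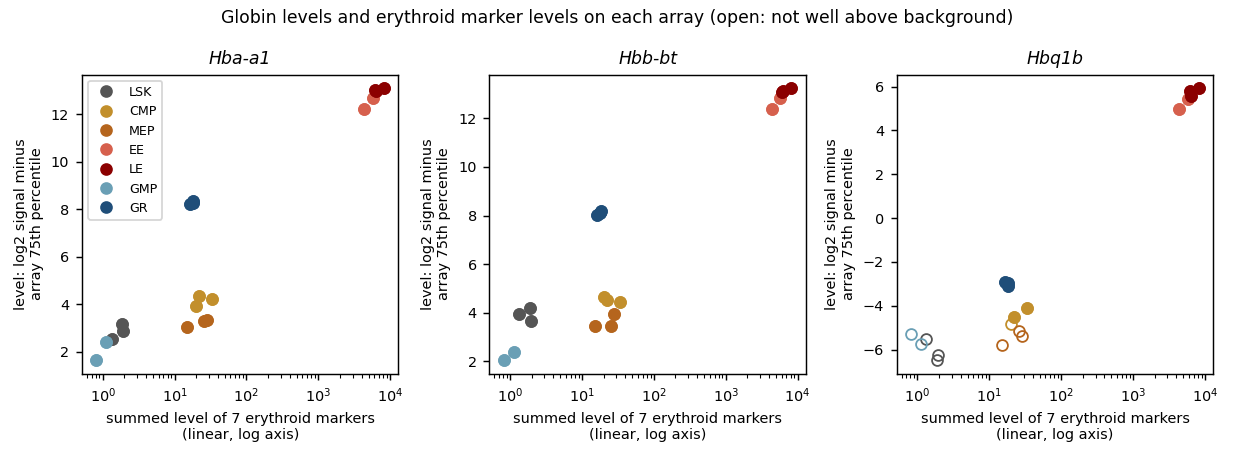
Level of Hba-a1, Hbb-bt and Hbq1b (vertical axes, log2) against the summed linear level of 7 erythroid markers (horizontal log axis) on each of 19 arrays; open points were not well above background. Marker sums are 16.4 to 18.3 in GR and 20.0 to 33.3 in CMP, with adult globin levels near 8 in GR and near 4 in CMP.

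All 4 adult probes were well above background on all 19 arrays, progenitors and LSK cells included, and they were ordered alike among the progenitors. GMP was below CMP for all of them. Hbb-bt stood at 2.39 and 2.06 in GMP, against 4.44, 4.64 and 4.55 in CMP, a difference of -2.32 ± 0.19 (adjusted p = 5.23e-07). Hba-a1 stood at 2.40 and 1.65 in GMP, against 4.23, 3.93 and 4.33 in CMP, a difference of -2.14 ± 0.22 (adjusted p = 6.94e-06). The differences were -1.89 ± 0.21 for Hbb-b2 and -1.29 ± 0.27 for Hbb-bs. These 4 were all the members tested and all fell, against 8.15% of all probes tested called lower and 17.1% called in either direction, and none of their arrays overlapped. Only Hbb-bs lost its call when a replicate was left out, at -0.81 without GMP replicate 2 (adjusted p = 0.0933).

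MEP, the progenitor of red cells and megakaryocytes, had less adult globin signal than CMP. Hba-a1 stood at 3.30, 3.32 and 3.05 in MEP, against 4.23, 3.93 and 4.33 in CMP, a difference of -0.94 ± 0.20 (adjusted p = 0.0165). Hbb-bt stood at 3.45, 3.95 and 3.45 in MEP, against 4.44, 4.64 and 4.55 in CMP, a difference of -0.92 ± 0.17 (adjusted p = 7.39e-03). Hbb-b2 fell by 0.78 ± 0.19 (adjusted p = 0.0293). Hbb-bs differed by -0.69 ± 0.24 (adjusted p = 0.151) and Hbb-bh1 by 0.66 ± 0.41 (adjusted p = 0.480), and neither passed. Thus 3 of 5 tested members fell, against 2.36% of all probes tested called lower and 4.19% called in either direction, and every MEP array lay below every CMP array for the 4 adult probes. On the 3 slides with both cell types the differences ran from -1.28 to -0.61 for Hba-a1 and from -1.09 to -0.69 for Hbb-bt.

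The size of these differences was stable but their calls were not. Under spike-in scaling the values for Hba-a1 and Hbb-bt were -0.90 and -0.88, and no member passed; 0 passed in a limma fit of these 6 arrays alone, where 4 of 5 had an unadjusted p under 0.05. Without CMP replicate 2, CMP replicate 3 or MEP replicate 3, 1 member passed. The summed level of the erythroid markers overlapped between the groups, at 15.1 to 28.1 in MEP and 20.0 to 33.3 in CMP. Of 12 other erythroid genes tested 2 fell in MEP, Slc4a1 by 0.92 ± 0.22 and the ubiquitin ligase gene Trim10 by 1.22 ± 0.32, with a median of -0.37 beside -0.03 over all probes tested. Of 9 genes of heme supply and hemoglobin upkeep 1 fell, Alas2 by 0.76 ± 0.19. Over all probes tested 2.36% were called lower and 4.19% in either direction. No gene of either list rose, and under spike-in scaling 0 of either passed in limma, Alas2 at -0.71 and Slc4a1 at -0.88.

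MEP nevertheless exceeded GMP. Hbb-bt was higher in MEP by 1.39 ± 0.19, Hba-a1 by 1.20 ± 0.22 and Hbb-b2 by 1.11 ± 0.21 (adjusted p at most 7.44e-04), with no overlap between arrays. Hbb-bs, at 0.60 ± 0.27, and Hbb-bh1, at 0.68 ± 0.46, did not pass. This made 3 of 5 tested members, against 13.7% of all probes tested called higher and 31.3% called in either direction. Erythroid markers moved with them, with sums of 15.1 to 28.1 in MEP and 0.819 to 1.13 in GMP, and their part in the result was not tested.

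CMP also exceeded LSK. Hba-a1 stood at 4.23, 3.93 and 4.33 in CMP, against 2.51, 2.86 and 3.16 in LSK, a difference of 1.32 ± 0.20 (adjusted p = 1.36e-04). Hbb-bt differed by 0.60 ± 0.17 (adjusted p = 0.0122) and Hbb-b2 by 0.61 ± 0.19 (adjusted p = 0.0199). Hbb-bs, at 0.57 ± 0.25 (adjusted p = 0.0858), did not pass. So 3 of 4 tested members were higher, against 21.2% of all probes tested called higher and 34.7% called in either direction; only Hba-a1 passed under quantile normalization, under the percentile over probes detected on all arrays, under spike-in scaling or without LSK replicate 2. The erythroid marker sum was 20.0 to 33.3 in CMP, against 1.33 to 1.95 in LSK.

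The order of the cell types was LE, EE, GR and CMP from the highest down for all 4 adult probes, with LSK or MEP next and GMP lowest. Of the 6 steps between neighbours in that order, 5 passed for Hba-a1, Hbb-bt and Hbb-b2, and the step between LSK and MEP did not. For Hbb-bs only the steps from EE to GR and from GR to CMP passed. For the Hbb-y probes and Hbb-bh1, LE and EE came first and second with each step passing, and the other cell types were mostly at background and have no order. Of all probes tested, 78.0% were called between EE and GR, 69.7% between GR and CMP, 42.2% between GMP and LSK, 28.1% between MEP and LSK and 80.9% between EE and GMP. Over the 9 globin probes 25 steps passed, and 12 under spike-in scaling.

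Regulators of globin genes were read from 2 lists. For these and later lists, the share of all probes called in each comparison is that given above for the members. Activators are factors that bind the globin promoters and enhancers, such as Gata1, the zinc finger factor of the red lineage, and Klf1, which binds CACCC boxes. In EE against MEP 7 of 8 activators rose and Ldb1, which bridges enhancer and promoter, fell by 1.33 ± 0.18. Gata1 rose by 2.02 ± 0.22, Klf1 by 2.96 ± 0.30, Tal1 by 3.20 ± 0.18 and Nfe2, a factor that binds globin enhancers, by 2.24 ± 0.17. The median was 2.13, beside 0.26 over all probes tested, of which 43.9% were called higher. These directions are relative to the percentile: under spike-in scaling 0 of 8 rose and 5 fell, Gata1 at -1.49 and Klf1, not past the test, at -0.55. In LE against EE 6 of 8 fell, and Nfe2 and Lmo2 rose on the percentile scale but stood at -0.27 and -0.48, not past the test, under spike-in scaling.

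In MEP against CMP, where adult globin fell, 1 of 8 activators passed, Nfe2 with a rise of 0.58 ± 0.15, and Gata1 (0.46 ± 0.20) and Klf1 (0.38 ± 0.27) did not. Of 17 silencers 1 passed there, Bcl11a with a rise of 0.53 ± 0.14. Neither Nfe2 (0.62) nor Bcl11a (0.57) passed under spike-in scaling. In GMP against CMP 7 of 8 fell, Gata1 by 4.20 ± 0.22 and Klf1 by 5.13 ± 0.30. In GR against GMP, where adult globin rose, 2 of 8 rose, Nfe2 by 1.37 ± 0.17 and Klf1 by 0.81 ± 0.30, and 4 fell; Gata1 differed by 0.44 ± 0.22 and did not pass. Under spike-in scaling 1 rose, Nfe2 by 1.72, and 0 fell, and Klf1 at 1.16 did not pass.

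Silencers of embryonic globin genes and their cofactors were called in both directions in EE against MEP, with 7 of 17 higher and 10 lower on the percentile scale. Over all probes tested 43.9% were called higher and 80.8% in either direction, so the count called higher was near the share over the array. Under spike-in scaling 2 silencers were higher and 15 lower. Bcl11a, a repressor of embryonic and fetal globin genes, fell by 4.10 ± 0.15, with means of 0.88 in EE and 4.98 in MEP. Myb, a factor of immature progenitors, fell by 5.57 ± 0.22. Sox6, a partner of Bcl11a, rose by 6.03 ± 0.29 and Klf3, which competes with Klf1 for its sites, by 4.73 ± 0.20, and both also rose under spike-in scaling, by 2.52 and 1.22. Zbtb7a, a further repressor of fetal-type globin, rose by 1.02 ± 0.25 on the percentile scale and fell by 2.49 under spike-in scaling.

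**Figure D5:**
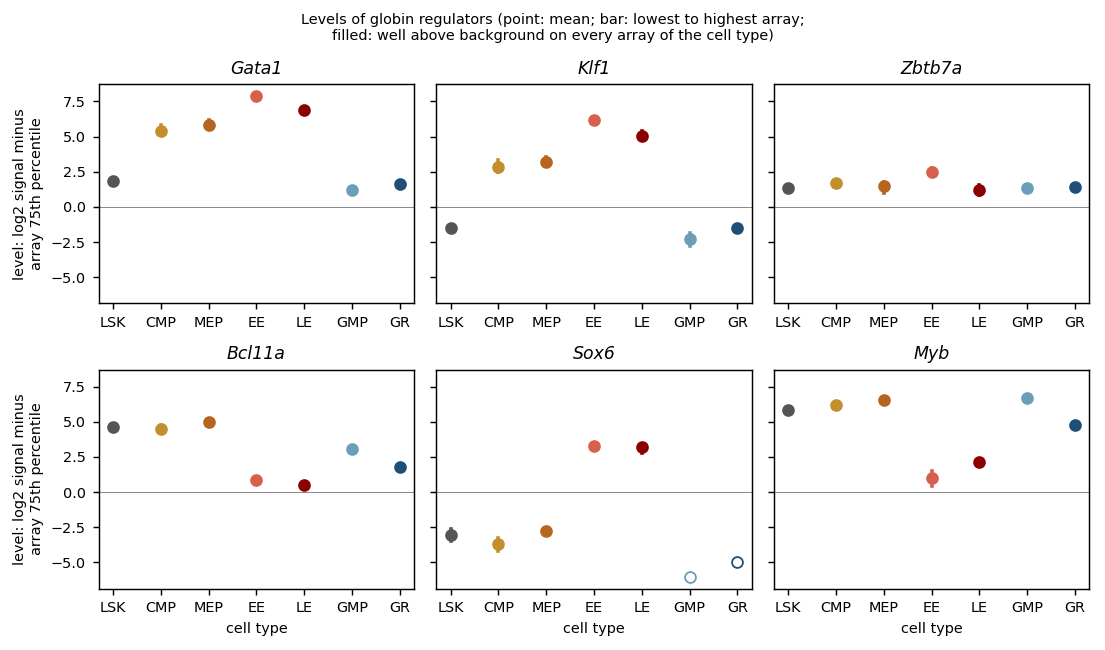
Levels of 6 globin regulators (vertical axis, log2 signal minus the 75th percentile of the array) by cell type (horizontal axis), with the mean as a point and the lowest to highest array as a bar; open points were not well above background on every array. Bcl11a and Myb stand lower in EE and LE than in MEP, and Sox6 stands higher.

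Among genes that set the fetal timing of red cells, Igf2bp1, Igf2bp3 and Lin28b were not tested in any comparison. Hmga2 and Igf2bp2 were well above background on no EE array and on all 3 MEP arrays, where their mean levels were -0.13 and -1.53, so they entered the test only through MEP and had to be lower in EE. Lin28a rose by 1.52 ± 0.33 there on the percentile scale and fell by 1.99 under spike-in scaling.

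Genes for heme supply and hemoglobin upkeep moved with the adult globins in EE against MEP. There 9 of 9 tested were higher, against 43.9% of all probes tested, with a median of 4.95. Under spike-in scaling 6 were higher and 1 was lower. Alas2 rose by 12.05 ± 0.21, Slc25a37, the mitochondrial iron importer, by 7.07 ± 0.19, and Fech, which inserts iron into heme, by 5.38 ± 0.15. Eif2ak1, the kinase that slows globin translation when heme is short, rose by 4.76 ± 0.16. In LE against EE 5 were higher and 1 was lower, against 1 and 1 under spike-in scaling. The largest difference there was that of Bpgm, which makes the regulator of oxygen release from hemoglobin, with a rise of 3.18 ± 0.14. Ahsp, the chaperone of free alpha chains, was not matched on the array.

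Of 6 neighbours of the alpha cluster 4 rose and 1 fell in EE against MEP. Of all probes tested 43.9% were called higher there and 80.8% in either direction. The neighbours had a median of 1.73, and 0 of them rose and 3 fell under spike-in scaling. Nprl3, whose introns hold the alpha globin enhancers, rose by 3.32 ± 0.17 and Mpg by 2.87 ± 0.21, against 9.24 for Hba-a1. In GR against GMP both fell, Nprl3 by 1.83 ± 0.17 and Mpg by 1.67 ± 0.21, while Hba-a1 rose by 6.26. Of the 6 neighbours 1 rose and 4 fell there, against 1 and 1 under spike-in scaling, where Nprl3 fell by 1.49 and Mpg at -1.33 did not pass.

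The genes whose levels ran most like those of the adult globins over the 19 arrays were found among 14924 genes by Pearson correlation, given as a description since the arrays share their cell types and scale. Ferritin heavy chain Fth1 came first and Alas2 second for both Hba-a1 (r of 0.992 and 0.990) and Hbb-bt (r of 0.993 and 0.993). Mean levels of Fth1 were 10.63 in EE, 10.46 in LE and 9.04 in GR, and 7.49 to 8.15 in the others. Carhsp1, Cmpk2 and E2f2 followed for Hba-a1, and Usp32, Zdhhc22 and Tprgl for Hbb-bt. For probe 2 of Hbb-y the nearest were Cmc4 and Mtcp1 (r of 0.992 and 0.991), and for Hbb-bh1 they were Fbxo9 and Disc1 (r of 0.984 and 0.983).

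Of the other globins, Hba-a2 moved in the direction of Hba-a1 but by less. Its levels were 12.38 and 11.98 in EE, 9.65, 9.69 and 9.78 in GR and 5.48, 5.54 and 5.54 in MEP. Within an array, Hba-a1 minus Hba-a2 was 0.26 to 0.31 in EE and -2.49 to -2.18 in MEP. The same gap was -1.56 to -1.28 in GR and -2.78 to -2.56 in GMP. The probe of Hbb-bh2 that was detected in GR was also well above background on all 3 LE arrays, at 10.8, 17.0 and 16.4 units. It was so on neither EE array, a bound of at least 1.88-fold on the percentile scale (limma, adjusted p = 1.30e-03). The other Hbb-bh2 probe was well above background on no array. The myoglobin gene Mb was well above background on no array. Neuroglobin, Ngb, was so on 2 arrays by 1 of its probes. Cygb, a globin of supporting cells, was so on 10 arrays and on none of the erythroblasts.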

How the data were processed

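Each array was deposited as a scanner file whose processed signal is an intensity on a linear scale, background-subtracted and detrended by Feature Extraction 11.5.1.1 with protocol GE1_1105_Oct12, per the file headers, which name mm9 for the probe annotation. The deposited series table holds background-subtracted intensities per spot on a linear scale, and log2 of these served as an alternative. Here log2 of the processed signal minus the 75th percentile of the array entered a limma fit (version 3.58.1, R 4.3.3) of the 7 cell types on the 19 arrays together, with Benjamini-Hochberg adjustment over all probes tested. Control spots were left out and spots of a probe averaged. Tested probes were detected on all arrays of 1 or both groups, and calls needed an adjusted p below 0.05. The number of arrays limits the precision. Alternatives were normexp background correction (on the median signal, since the mean signal is not a column used here), quantile normalization, spike-in scaling, other filters, slide and replicate blocks, and leaving out each replicate. The test was checked on simulated data. Named were all members and other globins, set regulators, and up to 4 called genes with the largest difference per list, with highest-mean probe per gene; a few list members beyond that limit, such as Lmo2, were named after their values were seen. Members and lists were chosen with earlier results of these data known.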

Additional observations from a re-analysis of the deposited data

How the results depend on the processing

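Over 39 tested globin differences, 594 recomputed values gave 528 with the same direction and side of the threshold, 53 no longer past it, 9 newly past it and 4 reversed. All 4 reversals came under spike-in scaling: Hbb-bh1 in EE against MEP at -0.35, and Hba-a1 at -0.37, Hbb-bt at -0.41 and Hbb-b2 at -0.32 in LE against EE. Spike-in scaling also left 1 globin probe called in CMP against LSK (3 otherwise), 0 in MEP against CMP (3) and 0 in LE against EE (6), and 12 neighbouring pairs of cell types past the test (25). In CMP against LSK 1 probe was called under quantile normalization and 1 under the percentile over probes detected on all arrays. With no filter 1 was called in MEP against CMP and 3 in LE against EE, and with only the 2 groups fitted 0 in MEP against CMP. Leaving out 1 replicate gave 1 to 3 called probes in CMP against LSK, 1 to 2 in MEP against CMP, 3 to 5 in GMP against CMP, 3 to 4 in MEP against GMP, 8 to 8 in EE against MEP, 3 to 7 in LE against EE and 5 to 5 in GR against GMP. Deviations of same-numbered samples correlated at -0.01 to 0.49 where they shared a slide and at -0.52 to -0.03 where they did not. In no comparison with 3 pairs did every pair exceed 0.1, so the numbers were not taken to pair the samples. In the same order 3, 3, 4, 3, 8, 7 and 5 globin probes were called with a replicate block, and 3, 2, 4, 3, 8, 7 and 5 with a slide block. Over all probes, calls fell to 2366 under spike-in scaling in CMP against LSK (11701 otherwise), 2308 in GMP against CMP (5394), 4281 in MEP against GMP (9442) and 9431 in GR against GMP (20840), and rose to 44911 with no filter in EE against MEP (25562). In MEP against CMP they were 1327, against 2468 with normexp, 47 with spike-in scaling, 677 with the series table, 708 with no filter, 0 with only the 2 groups (limma; 5818 at an unadjusted p under 0.05) and 360 to 1598 without 1 replicate. The share of calls that were higher moved with the scale, under the percentile over detected probes and then under spike-in scaling, to 30.1% and 47.2% in CMP against LSK (61.2% otherwise), 35.4% and 15.3% in GMP against CMP (52.3%, and 66.3% with normexp), 67.1% and 83.1% in MEP against GMP (43.7%), 56.5% and 2.88% in LE against EE (37.3%), and 53.2% and 63.5% in GR against GMP (42.0%). It was 64.3% under that percentile in MEP against CMP (43.6%) and 3.48% under spike-in scaling in EE against MEP (54.4%). The cause of these changes was not tested.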
